A study of Mus musculus with 3 samples.

Results

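Axon guidance ligands and receptors were followed in ribosome-bound RNA from the deep nuclei of the cerebellum, through which most cerebellar signals leave. The genes were picked by symbol from the 6 classical systems: semaphorins (Sema3 to Sema7) with plexins and neuropilins, Slits with Robos, ephrin-A with EphA, ephrin-B with EphB, netrins with Dcc, Neo1 and the Unc5 receptors, and the membrane-anchored netrin-G proteins. The symbols matched 75 of 32531 genes. Of these, 72 belong to 12 families, 37 of them ligands and 35 receptors. The other 3 share only the start of a symbol: Unc50 (165, 260 and 65 counts in replicates 1, 2 and 3), Unc5cl (1, 0 and 0 counts) and the antisense RNA Plxna4os1 (0 counts), and they are left out below.

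All 3 libraries form 1 group: immunopurified RNA of adult Htr6-TRAP NIDA113 mice on the C57BL/6J background, a transgenic line with EGFP-tagged Rpl10a, a ribosomal protein. The transgene is named for Htr6, which encodes a serotonin receptor, and it sets which cells carry the tag. Htr6 itself had 0, 7 and 0 counts. No second group and no unpurified tissue was analysed here, so the comparisons are between genes within a library, with the spread between 3 libraries as the error. Whether each library had its own animal is not stated in the labels, so that spread, and the p-values built on it, may be technical. The libraries held 7622010 to 8842058 gene counts, of which 24505 to 26109 fell on the 72 guidance genes. A count of 0 allows up to 0.397, 0.34 and 0.385 CPM (counts scaled to a common library size) in replicates 1, 2 and 3, by 3 counts and for counting error only.

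The purified RNA held markers of several neuron types and of glia, so a guidance transcript cannot be given to 1 cell type from these data. In bulk RNA, fewer cells of a type and less RNA per cell cannot be told apart. The 7 granule cell markers summed to 3150 to 3802 CPM and the 7 Purkinje cell markers to 6016 to 7964 CPM. The Purkinje sum came mostly from Itpr1 and Rgs8, with means of 3669 and 1733 CPM, while Pcp2 and Skor2 had 27.6 and 7.35 CPM. Granule cell markers had means from 83.9 CPM for Pax6 to 1077 CPM for Cbln3. The 7 markers of glutamatergic deep nuclei neurons summed to 479 to 738 CPM, with Slc17a6 at 302 ± 80.2 CPM (SD, n = 3), and the 5 inhibitory markers to 406 to 945 CPM. The 6 oligodendrocyte markers summed to 2890 to 3662 CPM and the 5 astrocyte markers to 1655 to 2140 CPM. Microglial and vascular lists reached at most 31.6 and 93.0 CPM, with C1qa, Aif1, Trem2 and Cldn5 at 0. Their highest members were Csf1r at 19.6 ± 9.77 CPM and Flt1 at 32.1 ± 22.5 CPM, levels that many guidance genes shared.

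Guidance systems pair a ligand, secreted or held in a membrane, with a receptor on the growth cone that turns or stops the axon by reshaping its cytoskeleton. Semaphorins signal through plexins, with neuropilins as co-receptors for most secreted class 3 members, Slits through Robos, ephrins through Eph receptor tyrosine kinases, and netrins through Dcc, Neo1 and the repulsive Unc5 receptors. In the adult brain many of these genes stay in use at synapses and in the extracellular matrix, and in the developing cerebellum they guide granule cell migration and axon layout.

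Most of the guidance genes were detected. Of the 72, 41 had a mean of at least 10 CPM, or 56.9 percent, beside 25.1 percent of all genes. In every library, 47 of the 72 had at least 10 counts, beside 27.6 percent of all genes. A mean of at least 100 CPM was reached by 9, or 12.5 percent, beside 6.35 percent of all genes. These 9 were the ligand genes Sema6d, Ntng1, Sema6a and Sema5a and the receptor genes Plxna4, Unc5c, Robo1, Plxna2 and Epha7. The median of the 72 was 15.02 CPM, against 0 CPM over all genes, of which 50.6 percent had no count at all. Per length, their median was 2.13 RPKM (CPM per kilobase of exon), against 0.344 RPKM over 23155 genes with a length and 5.46 RPKM over the 10341 of them with at least 10 counts in 2 libraries. The 72 were not themselves filtered by counts, so the last value is not a like comparison. Guidance genes are long, with a median exon length of 6852 bases against 3282 bases over all genes, so RPKM is used wherever levels of different genes are set side by side. Only 5 of the 72 had no count in any library: Sema3b, Sema3g, Ntn5, Ephb3 and Robo3, the last a gene of commissural axons.

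**Figure D1:**
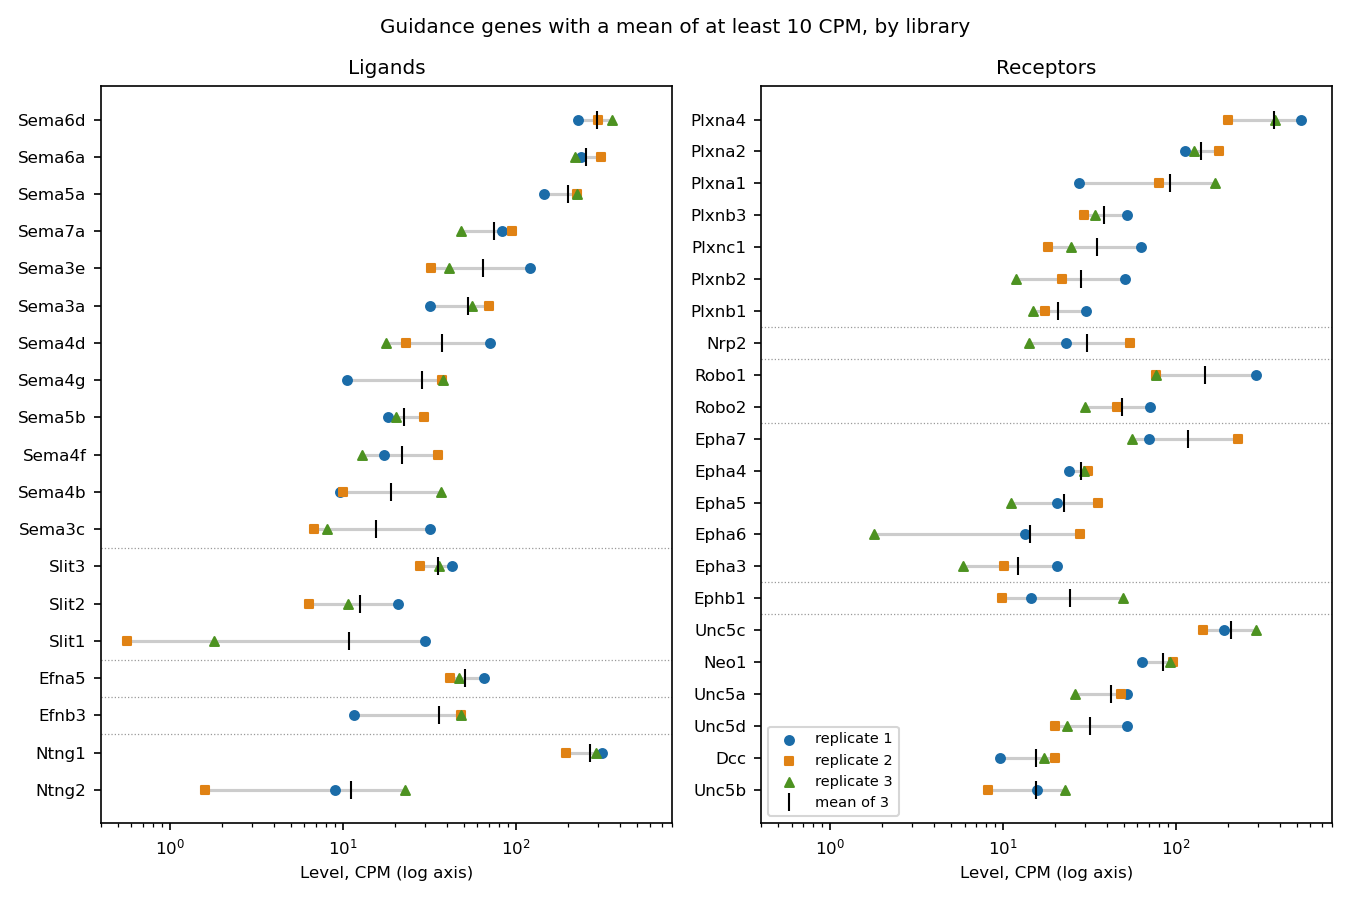
Level of each guidance gene with a mean of at least 10 CPM, in CPM on a log axis, for ligands (left) and receptors (right). Symbols mark the 3 libraries, grey lines their range and black ticks their mean; Plxna4 is the highest receptor by mean at 369 CPM, and Slit1 has the widest range, from 0.568 to 30.1 CPM.

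The semaphorins were the most abundant guidance ligands, led by transmembrane members. Sema6d (plus strand of chromosome 2, positions 124089969 to 124667770 in mm10), a ligand of plexin-A1, had 230, 298 and 358 CPM in replicates 1, 2 and 3. Sema6a, which acts with plexin-A2 and plexin-A4 in the cerebellum, had 238, 309 and 220.3 CPM. Their libraries overlapped, and so did the levels per length, 28.0 ± 6.10 RPKM for Sema6d and 29.2 ± 5.36 RPKM for Sema6a (SD, n = 3). By RPKM, Sema6d lay at the 94.9 percentile and Sema6a at the 95.1 percentile of the genes with a length. Sema7a, anchored in the membrane by a lipid, had 82.9, 94.5 and 48.4 CPM; being a short gene, it reached 22.8 ± 7.28 RPKM, below Sema6a in 3 of 3 libraries and below Sema6d in 1 of 3. With the longest transcript as the length, Sema7a stayed at 22.8 RPKM while Sema6d was at 45.8 and Sema6a at 37.35 RPKM, so their order depends on which exons are counted as length. Sema5a, a transmembrane protein with thrombospondin repeats, had 146, 226 and 227 CPM but only 10.7 ± 2.48 RPKM.

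Counts per gene do not separate the start sites of Sema6d, for which RefSeq lists a pair of promoter windows. The bases before the distal start are printed beside those of Efna5 and Neo1, each the leading or second gene of its family by CPM, because these 3 windows hold no annotated exon and differ in CpG content. Promoters of members with a mean of at least 10 CPM ranged from 2 CpG, as in Sema3a, to 54 CpG in windows of 300 bases. Capitals mark CpG dinucleotides, sequences run 5′ to 3′ on the gene's strand, and they are credited to RefSeq in build GRCm38.p6.
Sema6d, chr2:124089719-124089968, plus strand, 9 CpG in 250 bases: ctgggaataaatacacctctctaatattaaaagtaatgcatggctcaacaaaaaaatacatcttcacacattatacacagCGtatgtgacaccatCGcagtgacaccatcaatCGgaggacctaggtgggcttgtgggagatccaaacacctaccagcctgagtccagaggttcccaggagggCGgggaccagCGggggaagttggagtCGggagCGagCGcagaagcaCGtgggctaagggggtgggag
Efna5, chr17:62881318-62881567, minus strand, 32 CpG in 250 bases: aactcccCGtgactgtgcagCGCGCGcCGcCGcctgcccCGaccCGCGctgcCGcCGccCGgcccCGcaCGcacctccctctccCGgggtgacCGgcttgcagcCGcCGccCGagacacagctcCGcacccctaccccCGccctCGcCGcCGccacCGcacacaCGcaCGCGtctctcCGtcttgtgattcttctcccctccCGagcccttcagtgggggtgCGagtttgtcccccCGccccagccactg
Neo1, chr9:59036442-59036691, minus strand, 45 CpG in 250 bases: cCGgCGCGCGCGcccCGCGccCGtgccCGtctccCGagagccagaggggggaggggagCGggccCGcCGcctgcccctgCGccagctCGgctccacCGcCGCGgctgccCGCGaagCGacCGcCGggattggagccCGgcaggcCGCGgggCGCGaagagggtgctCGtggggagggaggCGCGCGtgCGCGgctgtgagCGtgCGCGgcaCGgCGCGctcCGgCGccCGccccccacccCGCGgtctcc
Over windows of 300 bases, 62 of the 72 guidance genes matched 78 promoters with a median of 19.5 CpG, against 7 over all 32851 promoters and 21 over the promoters of 8173 genes, those of the 11168 with at least 10 counts in 2 libraries that matched. The letters TATAAA, on either strand, occurred in 2 of the 78 windows (2.56 percent), against 13.6 percent of all promoters and 6.73 percent of those 8173 genes. Windows of guidance genes with a mean of at least 10 CPM had a median of 23.5 CpG, and those of the rest 17.5 CpG. A letter match is a description and not a binding site.

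Secreted class 3 semaphorins were lower, and less even between libraries, than Sema6a and Sema6d. Genes of lower level varied more in general: the median coefficient of variation was 63.5% at 10 to 50 CPM and 31.1% above. By edgeR's dispersion over its trend, Sema3e (1.97) and Sema3c (0.883) lay above Sema6d (0.71), and Sema3a (0.484) and Sema3d (0.2) below it. Set against Sema6a (0.415), only Sema3d of these lay below. Sema3e, the ligand of plexin-D1, had 120.3 CPM in replicate 1 against 32.4 and 41.1 CPM in replicates 2 and 3. Sema3a, which signals through neuropilin-1 and also sits in perineuronal nets, had 31.8, 70.1 and 56.2 CPM and was lowest in replicate 1. Sema3c had 32.0, 6.81 and 8.09 CPM, again highest in replicate 1. Sema3d (3.58, 9.53 and 8.60 CPM) stayed under 10 CPM. Sema3f, the classical ligand of neuropilin-2, was near the detection limit with 6, 0 and 14 counts.

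Of the transmembrane class 4 semaphorins, 4 of 6 passed 10 CPM and none passed 100 CPM. Sema4d, a plexin-B1 ligand known from oligodendrocytes, had 70.7 CPM in replicate 1 against 23.2 and 17.8 CPM in the others. The summed oligodendrocyte markers did not follow it, with 3133, 3662 and 2890 CPM in replicates 1, 2 and 3. Sema4g had 10.6, 37.3 and 37.7 CPM, Sema4f 17.3, 35.6 and 13.0 CPM and Sema4b 9.67, 9.99 and 37.2 CPM. Sema4g was thus lowest in replicate 1, Sema4f highest in replicate 2 and Sema4b highest in replicate 3. Sema5b (18.1, 29.5 and 20.4 CPM) was steadier, while Sema4a, Sema4c, Sema6b and Sema6c had means of 1.47 to 2.88 CPM.

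Plexins of class A carried most of the semaphorin receptor signal. Plxna4 (minus strand of chromosome 6, positions 32144268 to 32588192), a receptor of class 6 and, with neuropilins, class 3 semaphorins, had 532, 199.6 and 374 CPM in replicates 1, 2 and 3. At 26.1 ± 11.8 RPKM (SD, n = 3) it took 41.0% ± 9.91 of the summed plexin level. Plxna2, the Sema6a receptor of granule cells, had 114, 177 and 128 CPM, or 8.12 ± 1.93 RPKM. Plxna4 exceeded Plxna2 in 3 of 3 libraries, by 1.49 ± 0.98 on the log2(RPKM + 1) scale. With the longest transcript as the length the difference was 1.04 ± 0.99 and no longer had 1 sign in all libraries. Plxna1, the Sema6d receptor, was uneven at 27.5, 80.4 and 168.9 CPM, a 6.13-fold range in which the 3 libraries lay well apart. Of its exon length, 10.7% overlaps the antisense gene Gm26811, whose reads would not be separated if the counting ignored strand. Plxna3 was low at 2.65, 1.93 and 11.2 CPM.

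Plexins outside class A were lower than Plxna4, Plxna2 and Plxna1 by mean, with replicate 1 highest for each. Plxnb3 had 52.4, 29.6 and 33.9 CPM, Plxnb1, the Sema4d receptor, 30.2, 17.6 and 14.9 CPM, and Plxnb2 50.7, 22.02 and 11.9 CPM. Plxnc1, the receptor of Sema7a, had 62.6, 18.3 and 24.6 CPM, or 4.21 ± 2.87 RPKM, below its ligand's 22.8 ± 7.28 RPKM in each library. Plxnd1, the receptor of Sema3e, had 49, 20 and 0 counts, or 0.40 ± 0.451 RPKM, against 6.96 ± 5.22 RPKM for Sema3e. In these libraries the ligand gene of both named pairs was thus higher per length than the receptor gene.

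Neuropilins were low beside the plexins. Nrp2 had 23.0, 54.3 and 14.1 CPM and Nrp1 7.41, 1.48 and 14.5 CPM, so that Nrp2 was highest where Nrp1 was lowest. The difference of Nrp1 minus Nrp2 on the log2(RPKM + 1) scale was -0.95 ± 1.24 (SD, n = 3), smaller than its spread, with Nrp1 higher in 1 of 3 libraries. It was -1.73 ± 2.29 with a pseudocount of 0.1 and -0.28 without replicate 2. The neuropilins summed to 3.37 ± 1.18 RPKM and the plexins to 61.5 ± 14.7 RPKM.

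Slit and Robo genes were present at modest levels, and Robo1 was the member with the largest spread between libraries for its level, by edgeR's dispersion over its trend. Slit3 (plus strand of chromosome 11, positions 35121224 to 35708507), a secreted repellent, had 42.9, 27.8 and 35.8 CPM, or 5.85 ± 1.24 RPKM. Slit2 had 20.9, 6.36 and 10.7 CPM and lay below Slit3 in 3 of 3 libraries, by a log2(RPKM + 1) difference of -2.20 ± 0.07 (SD, n = 3). Slit2 was under 1 RPKM in each library, so the pseudocount bears on that value, which was -3.41 ± 0.41 with a pseudocount of 0.1. Slit1 had 227 counts in replicate 1 against 5 and 14 in replicates 2 and 3, a 53.0-fold range in CPM, so its mean of 10.8 CPM rests on 1 library. Without that library, the summed Slit level was 5.78 RPKM, against 8.17 ± 4.24 RPKM with all 3. Robo1 (plus strand of chromosome 16, positions 72308306 to 73046095), the main Slit receptor with Robo2, had 291 CPM in replicate 1 and 77.0 and 77.3 CPM in replicates 2 and 3. Without replicate 1, the summed Robo level was 7.48 RPKM, against 12.4 ± 8.55 RPKM with all 3. Robo2 followed Robo1 with 71.4, 45.4 and 29.8 CPM. Robo2 was below Robo1 in 3 of 3 libraries, by -1.17 ± 0.62 in log2 RPKM. Robo4, known from endothelium, had 17, 38 and 16 counts.

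Ephrin ligands were dominated by 1 gene in each class. Efna5 (minus strand of chromosome 17, positions 62604184 to 62881317), a lipid-anchored ephrin, had 65.4, 41.5 and 46.7 CPM and made up 80.8% ± 15.6 of the ephrin-A level (SD, n = 3). The other ephrin-A genes were seen in some libraries only: Efna3 had 0, 100 and 0 counts, Efna2 44, 0 and 1, Efna1 17, 0 and 5, and Efna4 0, 11 and 0. Efnb3 (minus strand of chromosome 11, positions 69554092 to 69560205), a transmembrane midline repellent, had 11.7 CPM in replicate 1 and 48.2 and 48.1 CPM in replicates 2 and 3. It made up 92.5% ± 8.41 of the ephrin-B level and exceeded Efnb2 (15, 4 and 37 counts) in 3 of 3 libraries, by 3.01 ± 1.06 in log2 RPKM, or by 4.68 ± 1.67 with a pseudocount of 0.1. Efnb1 had 12, 3 and 0 counts.

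Among Eph receptors, Epha7 was the most abundant by mean and Epha4 the steadiest. Epha7 (plus strand of chromosome 4, positions 28813131 to 28967499), a receptor of ephrin-A ligands, had 70.3, 228 and 56.1 CPM, or 11.9 ± 9.63 RPKM, and replicate 2 stood apart from the other libraries in a 4.06-fold range. Epha4, which binds both ephrin classes, had 24.2, 31.1 and 29.4 CPM, a range of 1.28-fold, or 3.51 ± 0.444 RPKM. It exceeded Ephb2 (2.78, 9.08 and 10.4 CPM) in 3 of 3 libraries by 1.52 ± 0.18 in log2 RPKM, or by 2.52 ± 0.67 with a pseudocount of 0.1, since Ephb2 was under 1 RPKM in each library. Epha5 (20.7, 35.6 and 11.2 CPM) and Epha6 (13.5, 28.0 and 1.80 CPM) ran high in replicate 2 with Epha7, whereas Epha3 (20.5, 10.2 and 5.90 CPM) did not. Epha10, which lacks a working kinase, had 33, 0 and 145 counts. Epha1 had 50, 44 and 0 counts, and Epha8 and Epha2 at most 8 counts in a library.

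EphB receptors were represented mainly by Ephb1 (14.6, 9.87 and 49.3 CPM), highest in replicate 3, at 3.51 ± 3.07 RPKM. Ephb4 had 5, 0 and 29 counts, and the kinase-inactive Ephb6 25, 0 and 0. Together the EphB genes reached 4.71 ± 3.48 RPKM (SD, n = 3), and the EphA genes 23.1 ± 12.2 RPKM. Without replicate 3, the EphB sum was 2.73 RPKM.

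**Figure D2:**
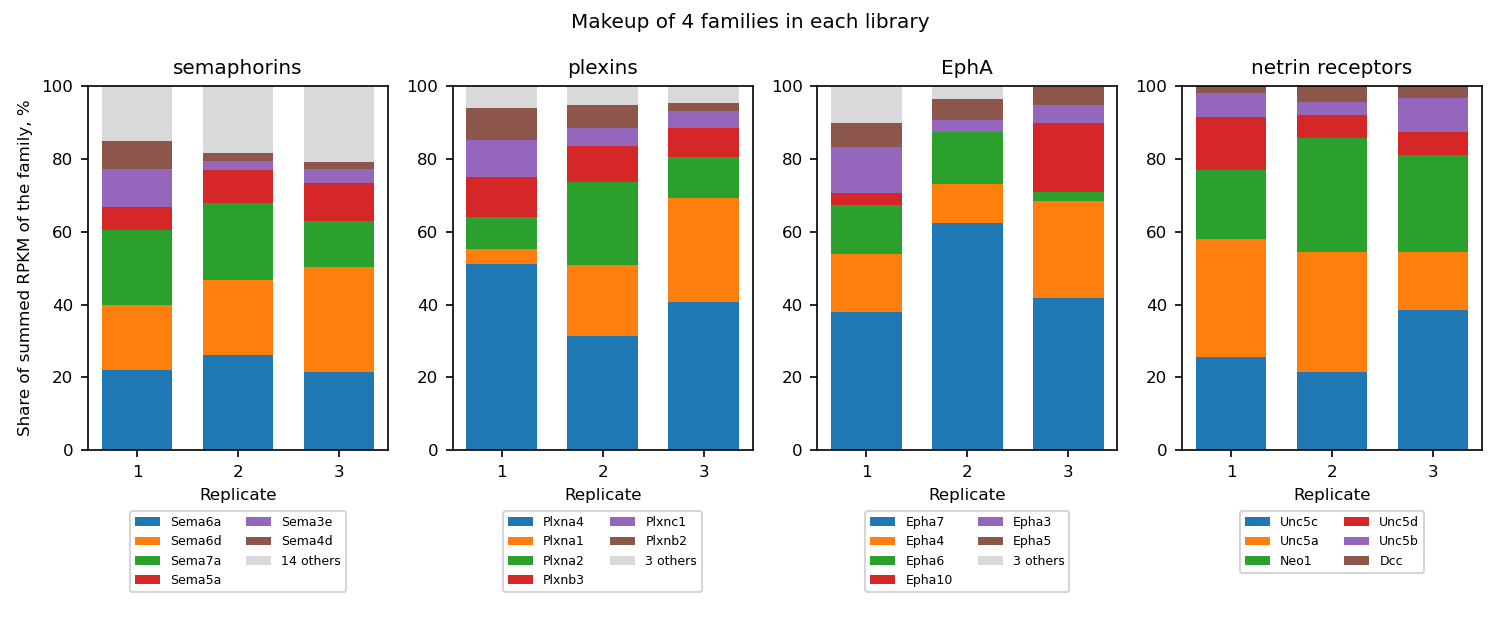
Share of the leading genes of a family, with any others pooled, in its summed RPKM, in percent, for 4 families in each of 3 libraries. Epha7 took 62.5% of the EphA level in replicate 2 and 37.9% and 41.7% in replicates 1 and 3, and Plxna1 took 4.12% of the plexin level in replicate 1 and 28.6% in replicate 3.

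All 6 netrin receptor genes passed 10 CPM, while none of the 4 secreted netrins did. Unc5c (plus strand of chromosome 3, positions 141465216 to 141834924), a repulsive receptor whose loss malforms the mouse cerebellum, had 189.6, 144 and 292 CPM. Neo1, the Dcc paralog that also binds repulsive guidance molecules, had 63.6, 96.7 and 92.5 CPM, and Unc5a 52.2, 48.5 and 26.2 CPM. Per length, Unc5c (10.9 ± 3.95 RPKM), Unc5a (10.1 ± 3.37 RPKM) and Neo1 (9.67 ± 2.07 RPKM; SD, n = 3 each) did not differ beyond their spread. With the longest transcript as the length, Unc5c was at 21.6 RPKM, Neo1 at 11.4 and Unc5a at 10.6 RPKM, so Unc5c then stood above both.

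The other netrin receptors followed at lower levels. Unc5d had 51.9, 20.1 and 23.4 CPM and Unc5b 15.8, 8.17 and 22.8 CPM. Dcc, the attractive netrin receptor, was the lowest of the 6 per length at 1.19 ± 0.405 RPKM, with 9.67, 20.0 and 17.2 CPM. Neo1 exceeded Dcc in 3 of 3 libraries by 2.29 ± 0.04 in log2 RPKM, or by 2.96 ± 0.18 with a pseudocount of 0.1. The netrins themselves were low but steady: Ntn4, a basement membrane netrin, had 56, 72 and 60 counts and Ntn1, the classical attractant, 44, 87 and 50. Ntn3 had 0, 1 and 2 counts.

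Netrin-G1, which is tethered to axons and binds the synaptic partner NGL-1 and not Dcc, was the highest guidance ligand gene per length. Ntng1 (minus strand of chromosome 3, positions 109780040 to 110144011) had 317, 195 and 290.5 CPM, or 32.4 ± 7.78 RPKM (SD, n = 3), at the 95.8 percentile of the genes with a length. That level lay within the spread of Sema6a and Sema6d. Its paralog Ntng2 had 9.00, 1.59 and 22.8 CPM, and 14.0% of its exon length overlaps the gene 6530402F18Rik. Ntng1 exceeded Ntng2 in 3 of 3 libraries by 3.39 ± 0.87 in log2 RPKM and made up 92.9% ± 6.30 of the netrin-G level. The partner gene of netrin-G1, Lrrc4c, was at 232 ± 88.9 CPM, and that of netrin-G2, Lrrc4, at 98.5 ± 26.8 CPM.

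The 8 gene pairs above (Nrp1 and Nrp2, Robo2 and Robo1, Slit2 and Slit3, Ntng1 and Ntng2, Neo1 and Dcc, Epha4 and Ephb2, Efnb3 and Efnb2, Plxna4 and Plxna2) were each tested by flipping signs over the 3 libraries, an exact permutation test, two-sided. Its smallest possible p is 0.25, and 7 pairs reached it by having 1 sign in 3 of 3 libraries, while Nrp1 minus Nrp2 gave an exact permutation p of 0.5. No pair can pass a threshold of 0.05 in this test with 3 libraries, so sizes are given beside their SD.

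**Figure D3:**
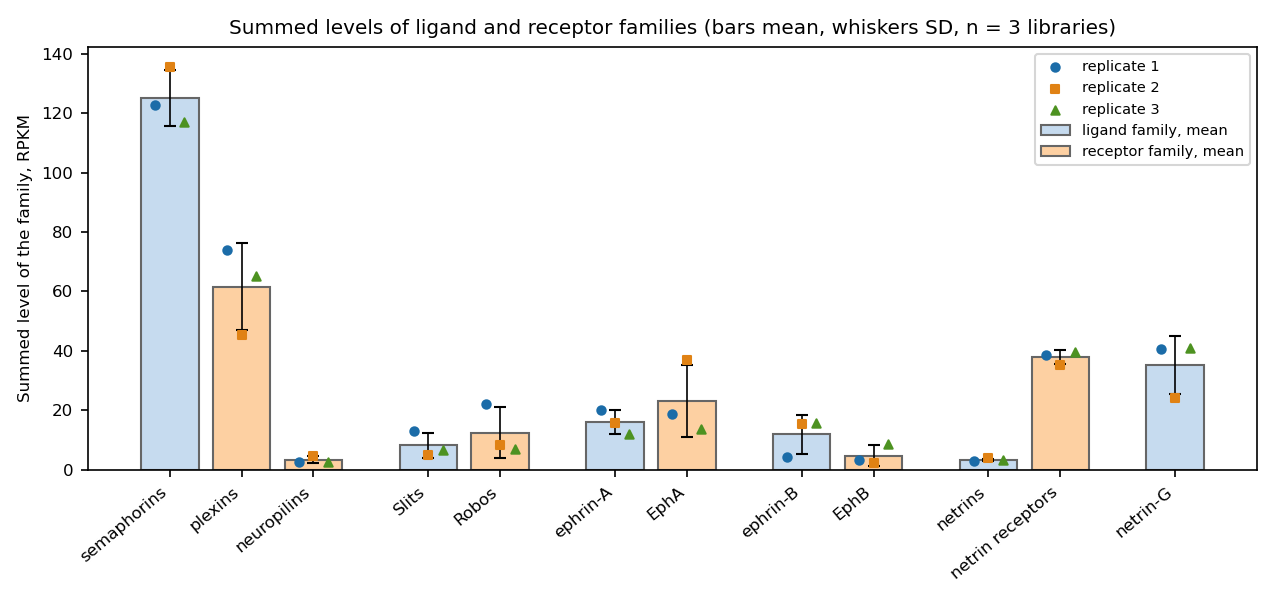
Summed level of each ligand and receptor family in RPKM; bars are means, whiskers the SD and symbols the 3 libraries, with ligand families left of their receptors. Semaphorins reach 117 to 136 RPKM, above plexins at 45.3 to 73.9 RPKM, and netrins stay under 4 RPKM beside 35.3 to 39.6 RPKM for their receptors.

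Ligand and receptor families were balanced differently from system to system. Semaphorins summed to 122.7, 136 and 117 RPKM in replicates 1, 2 and 3, and plexins with neuropilins to 76.6, 50.1 and 68.0 RPKM. The ligands were higher in 3 of 3 libraries, by 0.96 ± 0.40 on the log2(RPKM + 1) scale (SD, n = 3). Without the highest member of each family the difference was 1.39, while by medians over members it was -0.08. Netrins summed to 2.91, 3.78 and 3.13 RPKM and their receptors to 38.6, 35.3 and 39.6 RPKM. This difference, -3.19 ± 0.23 with the ligands lower in 3 of 3 libraries, exceeded its SD more than that of any other system.

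The other 3 systems differed by amounts close to or under their SD. Slits minus Robos gave -0.47 ± 0.38, lower in 3 of 3 libraries but only by -0.04 in replicate 3. Ephrin-A minus EphA gave -0.42 ± 0.67, smaller than its SD, with the ligands higher in 1 of 3 libraries, and -0.04 without replicate 2. Ephrin-B minus EphB gave 1.17 ± 1.08, higher in 3 of 3 libraries, and 0.56 without replicate 2. It was 0.20 in CPM and -0.52 once the top gene of each family (Efnb3 and Ephb1) was left out. Since the genes were chosen with earlier results known, these sums carry no p-value. Over all systems, netrin-G included, the 37 ligands summed to 199.6 ± 4.14 RPKM and the 35 receptors to 142.9 ± 14.6 RPKM. The medians ran the other way, at 1.83 RPKM for ligands and 2.49 RPKM for receptors.

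Nearly every guidance gene differed between the libraries by more than counting error. Of the 53 with at least 10 counts in 2 libraries, 52 varied beyond it (Poisson chi-square test, Benjamini-Hochberg adjusted over all 11168 genes tested), and the background was 96.5 percent of all genes tested. The exception was Ntn4, with an adjusted p of 0.858 in that chi-square test and a coefficient of variation (CV) of 4.93%. Without replicate 1, 32 of 47 members varied, and 80.5 percent of all genes tested. Relative to genes of their level, edgeR's quasi-likelihood dispersion marked 0 of the 53 and 0.0 percent of all genes at an adjusted p under 0.05. At an unadjusted p under 0.05 it marked 1 member, Robo1, and 4.27 percent of all genes tested. The median CV of the 53 was 54.9%, against 56.3% over all genes tested. For members of 50 CPM and more it was 31.9%, against 31.1% over all genes of that level.

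**Figure D4:**
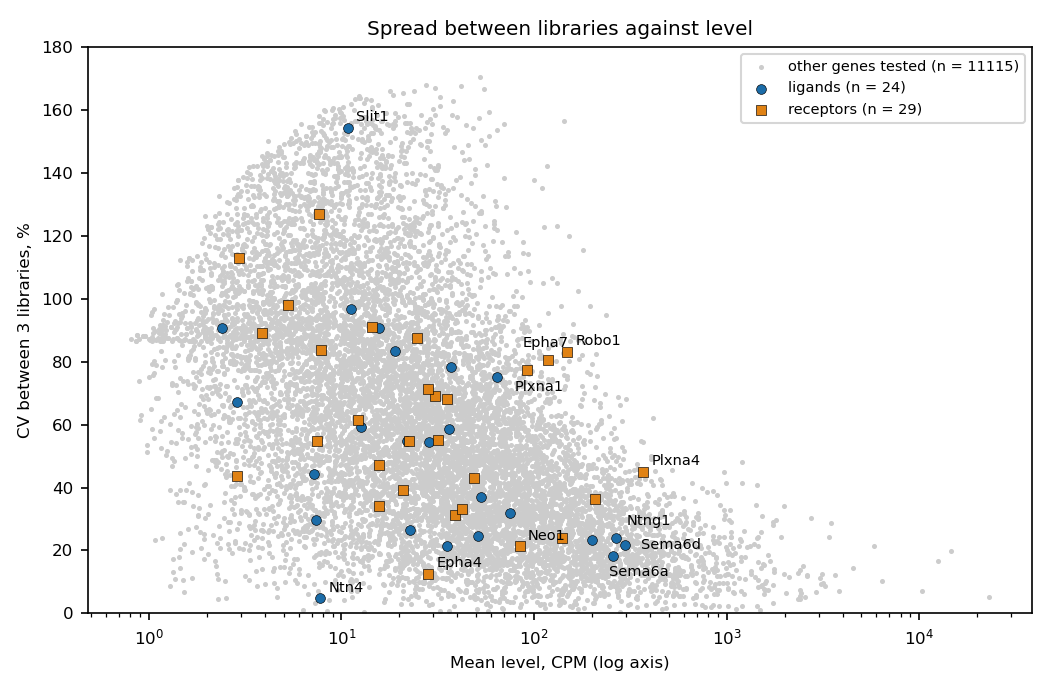
CV between the 3 libraries, in percent, against mean level in CPM on a log axis, for the ligand genes, receptor genes and other genes with at least 10 counts in 2 libraries. Guidance genes lie within the cloud of other genes; Robo1 (83.2%) is near its upper edge and Ntn4 (4.93%) near its lower edge.

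Replicate 1 was the library in which most members stood apart, and the same held over all genes tested. There, 10 of the 53 had at least 2 times the CPM of each other library: Robo1, Slit1, Sema3c, Sema3e, Sema4d, Plxnb2, Plxnc1, Plxnd1, Epha3 and Unc5d. That is 18.9 percent of members, and 12.7 percent of all genes tested did the same. In replicate 2 it held for 4 (Epha6, Epha7, Nrp2 and Sema4f), or 7.55 percent of members, beside 9.97 percent of all genes tested. In replicate 3 it held for 7 (Plxna1, Plxna3, Ephb1, Epha10, Efnb2, Ntng2 and Sema4b), or 13.2 percent of members, beside 10.9 percent of all genes tested. Of the 53, 2 had 0 counts in a library beside at least 50 in another, Epha10 and Epha1, as did Efna3 outside the 53, and the same held for 4.35 percent of all genes tested. Replicate 1 also had the highest summed glutamatergic deep nuclei markers (738 CPM, against 521 and 479 CPM). Slc17a6, Meis1, Meis2 and Lhx2 were highest there, but Tbr1 was lowest (1.46 CPM, against 17.5 and 12.3 CPM). Spp1 and Lhx9 were highest in replicate 2. The summed Purkinje cell markers were lowest in replicate 1 (6016 CPM, against 7964 and 7597 CPM), though Rgs8 was lowest in replicate 3 and Skor2 in replicate 2. Replicate 1 also had the highest pan-neuronal sum (24790 CPM) and the lowest granule cell and astrocyte sums (3150 and 1655 CPM). Of the pan-neuronal markers, Snap25 (16990 CPM), Nefm and Nefl were highest there, but Syp and Rbfox3 were highest in replicate 2 and Nefh in replicate 3. Of the granule cell and astrocyte markers, Zic1 and Slc1a2 were lowest in replicate 2 and Fat2 in replicate 3, the rest in replicate 1. The part of these markers in the differences was not tested.

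Genes that act with guidance receptors were mostly detected. Of 46 partner and effector genes, 38 had a mean of at least 10 CPM, beside 41 of the 72 ligands and receptors and 25.1 percent of all genes. At least 100 CPM was reached by 17, beside 6.35 percent of all genes. The median of the 46 was 61.1 CPM, against 0 CPM over all genes and 24.7 CPM over the 11168 genes with enough counts. The 46 were not themselves filtered by counts. In the Slit and Robo group all 7 passed 10 CPM, led by Srgap3, a GTPase-activating protein that binds Robo1 (1207 ± 29.2 CPM; SD, n = 3), Enah, an actin regulator (720 ± 183 CPM), and Srgap1 (313 ± 48.1 CPM). In the semaphorin and plexin group 10 of 15 passed, led by Arhgef12, which binds B plexins (558 ± 108 CPM), Mical2 (511 ± 190.4 CPM) and Dpysl2, the mediator of Sema3a signals also called CRMP2 (495 ± 33.6 CPM). Met had 1 count and Mical1 none.

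In the ephrin and Eph group 9 of 11 passed 10 CPM, led by the Rac exchange factor Tiam1 (372 ± 122.9 CPM), Sdcbp (188 ± 53.2 CPM) and Chn1, the chimaerin that acts after EphA4 (176 ± 11.99 CPM). In the netrin group 12 of 13 passed, led by the exchange factor Trio (713 ± 228 CPM), Ablim1 (280.4 ± 88.8 CPM) and Lrrc4c. The repulsive guidance molecules Rgma and Rgmb, ligands of Neo1, were at 15.3 ± 4.49 and 18.6 ± 5.26 CPM, and Draxin, a Dcc ligand, had 0, 0 and 17 counts.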

How the data were processed

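The deposited files hold raw counts of reads per gene symbol, 1 table per library. STAR 2.0.0e, HTSeq and mm10 are named in the submitters' processing notes; no source used here gives the annotation or the strand setting. The 5 HTSeq summary rows and an empty row named unknown were left out; 44.1 to 50.2% of counted reads had no feature and 1.77 to 1.94% were ambiguous. CPM used library sizes scaled by TMM (edgeR 4.0.16, R 4.3.3), and RPKM the exon length over all transcripts in GENCODE M21, matched by symbol (23155 symbols, all 72 guidance genes), which also gave coordinates. Depth was 7622010 to 8842058 gene counts per library.

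The labels give 1 group. Differences within a library are on the log2(RPKM + 1) scale with a pseudocount of 1, which understates those of low genes. Pairs were tested by exact sign-flip permutation (scipy 1.17.1). Genes with at least 10 counts in 2 libraries were tested for spread between libraries with a chi-square test against Poisson error. They were also tested with edgeR's intercept-only quasi-likelihood dispersion over its trend (common biological CV 0.832). Both tests were Benjamini-Hochberg adjusted and run on simulated data in which some genes changed in 1 library. For the chi-square test these data had no spread beyond counting error. For the dispersion test only large changes were simulated, so its power for smaller ones is not known. Every member found by the symbol rule is named; those with a mean of at least 10 CPM are given in all 3 libraries, and of each of 4 partner groups the 3 highest are named, with a few others chosen after their values were seen. The members, gene pairs and lists were chosen with earlier results of these data known. Alternatives were DESeq2 1.42.0 size factors, other lengths, pseudocounts, filters and summaries, and leaving out each library. No paired analysis was possible because there is 1 group.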

Additional observations from a re-analysis of the deposited data

How the results depend on the processing

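Of the alternatives, 177 values were counted as unchanged, 28 as moved and 2 as changed in sign. Gene pairs were counted as unchanged by direction and side of the threshold alone, and sums and ligand minus receptor differences by moving less than their SD. A pair counted as unchanged could thus move by many SDs. With a pseudocount of 0.1, Slit2 minus Slit3 went from -2.20 ± 0.07 to -3.41, and Neo1 minus Dcc from 2.29 ± 0.04 to 2.96. No pair could change its side of the threshold, since the sign-flip test cannot pass 0.05 with 3 libraries or fewer. Leaving out 1 of 3 libraries moves a mean by less than the SD over libraries, whatever the values. Sums and ligand minus receptor differences were therefore counted as unchanged there by construction. All 8 gene pairs kept the direction of their mean under every alternative tried, but sizes and SDs of pairs with a gene near or under 1 RPKM depend on the pseudocount. With the longest transcript as the length, summed RPKM was 178.8 for semaphorins, 6.671 for neuropilins, 25.89 for Robos, 53.56 for netrin-G and 51.22 for netrin receptors. Without its highest member it was 95.92 for semaphorins, 35.37 for plexins, 0.7968 for neuropilins, 2.322 for Slits, 3.418 for Robos, 3.273 for ephrin-A, 0.5358 for ephrin-B, 1.196 for EphB, 1.199 for netrins, 2.793 for netrin-G and 26.93 for netrin receptors; these are lower by construction.

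Semaphorins minus plexins and neuropilins changed sign to -0.08 with the median over members, and was 1.39 without the highest member of each family and 0.54 in CPM. Ephrin-B minus EphB changed sign to -0.52 without the highest members. Slits minus Robos was -1.18 with the longest transcript and -1.65 in CPM, and ephrin-A minus EphA was -1.74 without the highest members and -1.7 in CPM. Netrins minus their receptors was -3.57 with the longest transcript, -3.68 without the highest members, -4.61 in CPM, -3.5 with a pseudocount of 0.1 and -2.0 with the median over members. Beyond the change of length, scale or members itself, the cause was not tested.

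Leaving out 1 library in turn, 37 to 42 members had a mean of at least 10 CPM and 32 to 45 varied beyond counting error, against 52 with all 3. Fewer libraries and genes enter these tests. At least 10 CPM in every library was reached by 31 members, against 41 by the mean. No paired analysis was possible because there is 1 group. With 3 libraries the sign-flip test cannot pass 0.05, genes under about 10 counts are at the limit of this depth, and intervals and floors cover counting error only.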
